A study of Mus musculus with 36 samples.

Results

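Monocytes sorted from the fetal liver of mouse embryos at E15.5 were compared with monocytes sorted from the bone marrow of adult mice aged 6 to 12 weeks, with 4 arrays of each. These 8 arrays were chosen by their titles out of 36 arrays in 9 groups of 4, and 12244 of the 19938 genes with a probe set of their own were tested, those above the median of the table in at least 4 of the 36 arrays. Both groups came from wild-type C57BL/6 mice that carried the CD45.1 and CD45.2 alleles, so the donor allele pair was shared and did not differ between them. Fetal livers were digested with 1 mg/ml collagenase A at 37 °C and bones were crushed, and 20000 cells were purified by flow cytometry for each RNA sample. The surface markers of that sort were not stated in the labels, and neither was whether one RNA sample pooled several embryos. Age, organ and the way the organ was taken apart all differ between the groups, and their parts in any difference cannot be told apart. Another share of the sorted cells was given through the nose to newborn Csf2rb-/- mice, which lack a chain of the GM-CSF receptor, and the alveolar macrophages that had grown from them were sorted from lung lavage 6 weeks later (4 arrays for each origin). RNA of all samples was amplified and hybridised to Affymetrix Mouse Gene 1.0 ST arrays.

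Monocytes are circulating myeloid cells that arise from dedicated progenitors, in the fetal liver before birth and in the bone marrow afterwards. The classical kind leaves the blood by way of the chemokine receptor Ccr2 and can turn into macrophages or antigen-presenting cells in tissues. Fetal liver monocytes enter the lung before birth and mature into alveolar macrophages under GM-CSF. Adult bone marrow monocytes reach tissues mainly after injury or where the niche is empty.

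Values are log2 units, so 1 unit is a 2-fold difference, and the median of the whole table, 4.62, was taken as the border under which a gene is dim. Genes with an adjusted p under 0.05 in limma were called. Of the 12244 genes, 1292 (10.6%) were called higher in fetal liver and 1098 (8.97%) lower, and 341 (2.79%) and 301 (2.46%) of these differed at least 2-fold. Each count over a gene list below is to be read against 10.6% higher and 8.97% lower, and a count near these shares says nothing particular about its list. Differences of 8-fold and more were rarer: 11 genes were higher and 19 lower by that much. The median difference over all genes was -0.00. Array medians ran from 4.61 to 4.69 in fetal liver and from 4.67 to 4.73 in bone marrow. Where a group mean lay under 4.62, that value took its place in the fold, which is then written as "at least".

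**Figure D1:**
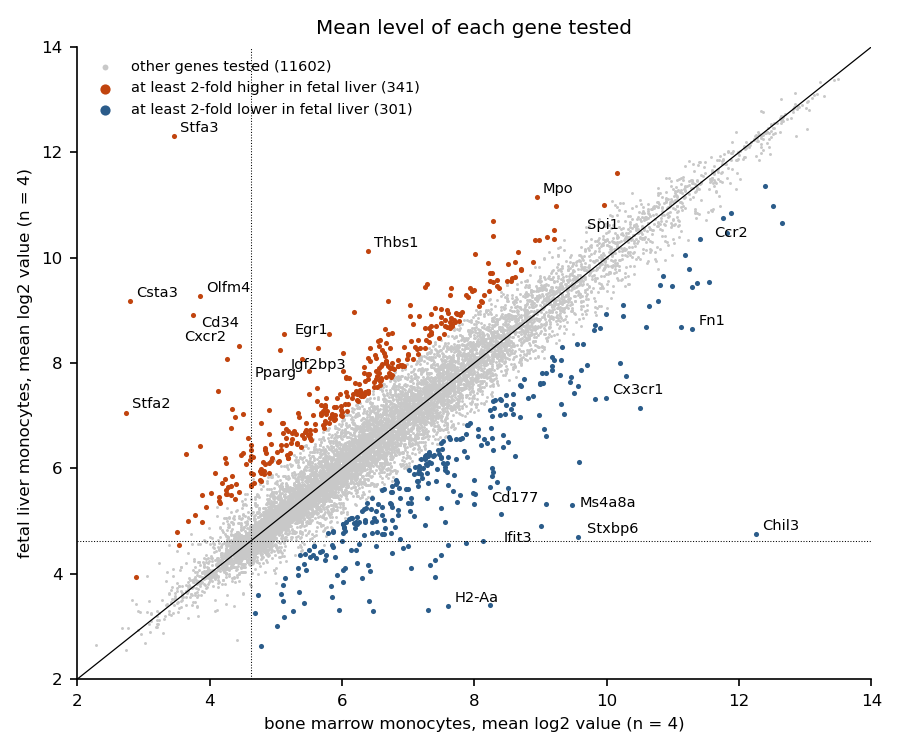
Mean log2 value of each of the 12244 genes in 4 bone marrow arrays (horizontal axis) against 4 fetal liver arrays (vertical axis). Orange points are the 341 genes at least 2-fold higher and blue points the 301 genes at least 2-fold lower in fetal liver; the solid line marks equal levels and the dotted lines the median of the table, 4.62. Stfa3 and Chil3 lie farthest from the line of equality.

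Both groups carried the main genes of a monocyte. Spi1, the transcription factor that sets the myeloid fate, read 10.51, 10.31, 10.21 and 10.54 in the 4 fetal liver arrays and 10.57, 10.01, 10.55 and 10.22 in bone marrow. The groups overlapped, and the difference of 0.05 ± 0.14 (SE, adjusted p = 0.858) was not called. Irf8 and Klf4, which direct monocyte development, differed by -0.36 (adjusted p = 0.13, but -0.43 and 0.039 after quantile normalization) and -0.16 (adjusted p = 0.611). Csf2ra, the binding chain of the GM-CSF receptor, differed by -0.17 (adjusted p = 0.608). Ccr2, the receptor for monocyte exit from the marrow, was bright in all arrays but lower in fetal liver, at 10.71, 10.73, 10.63 and 10.78 against 11.53, 11.74, 11.37 and 11.38. These values did not overlap and the difference was -0.79 ± 0.22 (adjusted p = 0.00748). Over the 27 tested surface genes of classical monocytes, 16 were lower and 2 higher in fetal liver, with a median of -0.62. A single gene was higher without bone marrow replicate 1 or 3, or without fetal liver replicate 3 or 4. The mean of these genes was 8.95 to 9.39 in fetal liver arrays and 9.93 to 10.16 in bone marrow arrays. Spi1, Irf8, Klf4, Csf2ra and Ccr2 were thus present in both groups, as the label of monocytes implies.

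Markers of other cells that such a sort could carry were mostly dim in both groups. Of 14 measured erythroid genes, 10 were dim in both. Array means of the list were 4.51, 4.11, 4.26 and 4.12 in fetal liver replicates 1 to 4, and 4.00 to 4.18 in bone marrow. The 15 hepatocyte and hepatoblast genes, of which 10 were dim in both, averaged 4.36 to 4.49 against 4.32 to 4.47. Means for the B cell list were 4.16 to 4.35 against 4.18 to 4.27, and those for T and NK cells 3.82 to 4.00 against 3.84 to 4.10. Genes of tissue macrophages averaged 4.62 to 4.74 against 4.62 to 4.76, with 13 of 21 dim in both. The dendritic cell list stood lower in fetal liver, at 4.58 to 4.69 against 5.05 to 5.44, and 5 of its 12 tested genes were called lower with none higher (6 lower and 0 higher at an unadjusted p under 0.05 in limma). A smaller share of some cell type and less RNA of its genes in each cell cannot be told apart in sorted bulk samples, here and in the results that follow.

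**Figure D2:**
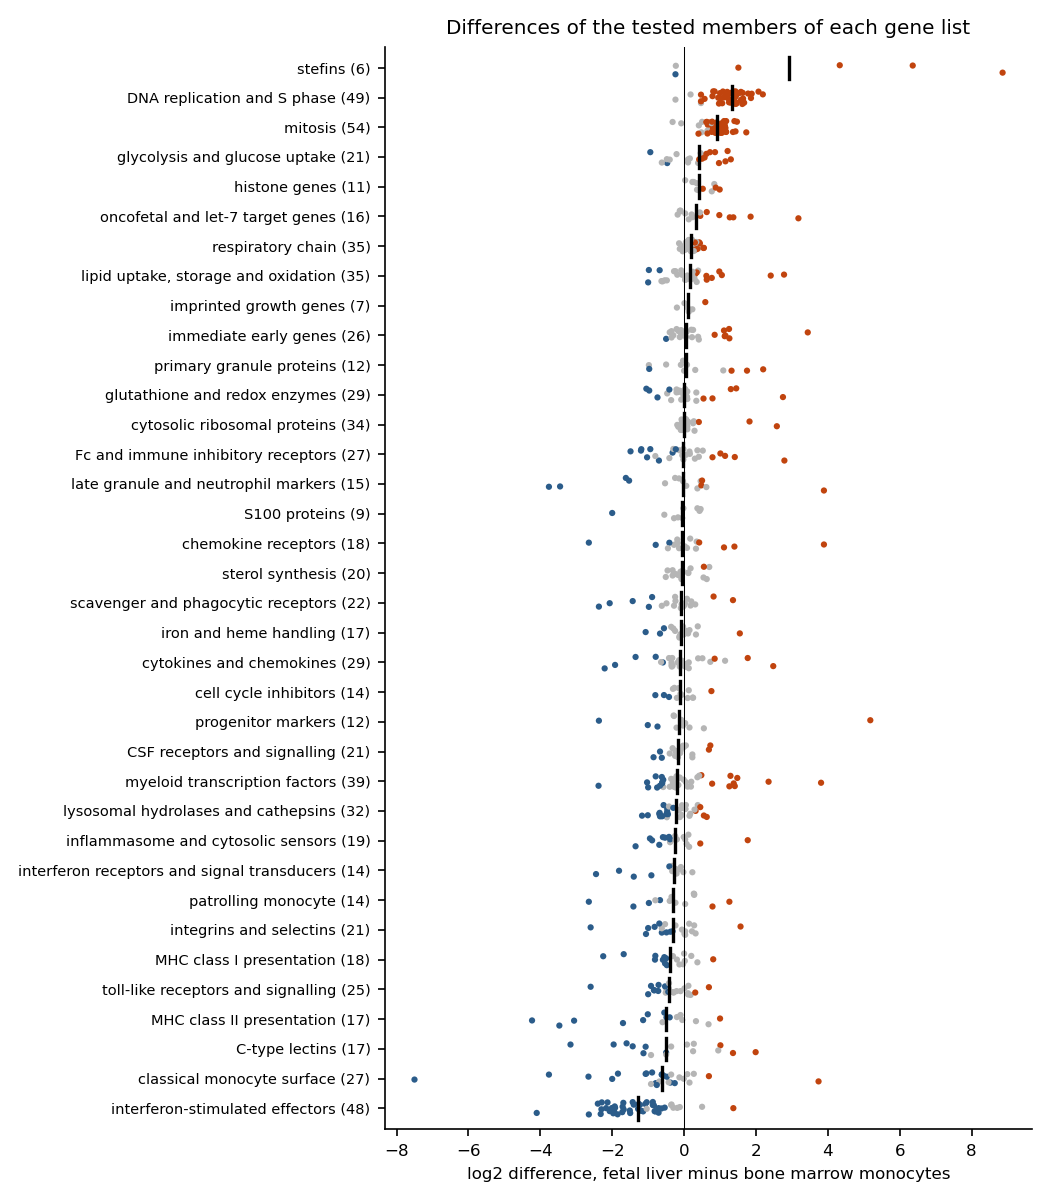
Log2 difference between fetal liver and bone marrow monocytes (horizontal axis) for each tested member of each gene list (1 row a list, number of members in brackets). Orange and blue points were called higher and lower in fetal liver, grey points were not called, and the black bar is the median of the list. DNA replication genes lie mostly to the right and interferon-stimulated effectors mostly to the left. In the stefin row, Stfa3, Csta3 and Stfa2 passed the filter on dim genes through the fetal liver arrays alone, so that row is not read.

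The largest difference of all concerned the stefins, small cytosolic inhibitors of cysteine cathepsins whose mouse genes form a cluster on chromosome 16. Stfa3 read 11.87, 12.40, 12.47 and 12.51 in fetal liver arrays and 2.71, 3.68, 3.08 and 4.36 in bone marrow arrays. The groups were separated by more than 7 units, and the fold was at least 206 (difference 8.86 ± 0.25, adjusted p = 1.06e-23). Csta3 read 8.23, 9.59, 9.51 and 9.34 against 3.03, 2.64, 2.85 and 2.69, which is at least 23.3-fold higher (6.36 ± 0.19, adjusted p = 2.93e-23). Stfa2 read 5.60, 8.30, 7.11 and 7.24 against 2.67, 2.65, 2.93 and 2.69, at least 5.43-fold higher (4.33 ± 0.26, adjusted p = 1.76e-14). Fetal liver replicate 1 was the lowest array of its group for each of these genes and still lay above every bone marrow array. Cst7, a cystatin of granules, was higher by 1.51 with overlapping values. Cst3, the secreted cystatin C, was lower by 0.24 on the log2 scale, a call lost in a fit of the 8 monocyte arrays alone, and Cstb, which most cells express, was not called at -0.23. Stfa3, Csta3 and Stfa2 passed the filter on dim genes through the fetal liver arrays alone, and Csta1 and Csta2 were dim in both groups and not tested, so no count over the family is read. The genes are close relatives, so probes may share signal among them.

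The windows around the starts of the 3 stefin genes are shown because their genes differed most and moved together. RefSeq (GRCm38.p6) places them at chr16:36455343-36455642 on the minus strand for Stfa3, chr16:36210153-36210452 on the plus strand for Csta3 and chr16:36408314-36408613 on the minus strand for Stfa2, each from 250 bases before to 50 after the annotated start. Capitals mark the 4 runs of 13 to 17 bases that all 3 windows share in the same order.
Stfa3: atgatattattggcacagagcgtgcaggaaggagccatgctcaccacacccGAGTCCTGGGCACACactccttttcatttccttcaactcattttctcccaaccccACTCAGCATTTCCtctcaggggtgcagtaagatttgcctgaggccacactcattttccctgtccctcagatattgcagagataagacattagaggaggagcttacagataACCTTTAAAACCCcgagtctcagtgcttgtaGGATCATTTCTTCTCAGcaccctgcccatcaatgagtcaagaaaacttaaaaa
Csta3: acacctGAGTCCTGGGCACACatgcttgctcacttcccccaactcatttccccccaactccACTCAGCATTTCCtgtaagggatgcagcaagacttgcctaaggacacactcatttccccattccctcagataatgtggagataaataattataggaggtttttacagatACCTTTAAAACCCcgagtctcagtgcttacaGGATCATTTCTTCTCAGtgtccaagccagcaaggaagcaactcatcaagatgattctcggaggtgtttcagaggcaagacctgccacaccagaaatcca
Stfa2: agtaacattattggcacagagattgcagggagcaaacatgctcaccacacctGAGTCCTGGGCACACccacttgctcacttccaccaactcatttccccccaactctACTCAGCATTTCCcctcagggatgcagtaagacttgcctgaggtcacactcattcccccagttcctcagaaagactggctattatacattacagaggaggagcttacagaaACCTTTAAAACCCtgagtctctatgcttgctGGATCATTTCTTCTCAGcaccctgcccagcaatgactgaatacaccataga
Aligned over their whole length, the windows of Stfa2 and Stfa3 were identical at 81% of positions, and that of Csta3 shared 62.2% with Stfa3 and 60.5% with Stfa2. Each run was found in 5 to 10 of the 32851 windows of the table (0.0152% to 0.0304%). Besides the genes shown, these windows belonged to Csta1, Stfa1, Stfa2l1, Cstdc3, Cstdc4, Cstdc5, Gm7260 and Gm40403. Csta1, which was dim in both groups, holds the runs that start at -199 and -144 in Stfa3, so the runs are not particular to the genes that were higher. The first run starts at -199 in Stfa3, -244 in Csta3 and -198 in Stfa2, counted from the annotated start. A shared run is a description of related sequences and says nothing of a factor that binds there.

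Proteins of the primary granules, which promyelocytes make first, were in part higher in fetal liver. Prtn3, the serine protease proteinase 3, read 11.33, 11.26, 10.85 and 10.54 against 9.02, 8.83, 9.33 and 9.79 in bone marrow. These values did not overlap (1.75 ± 0.17, 3.37-fold, adjusted p = 1.10e-09). Mpo, myeloperoxidase, read 12.05, 11.41, 10.52 and 10.60 against 9.53, 7.42, 9.0 and 9.82, again without overlap (2.20 ± 0.32, 4.61-fold, adjusted p = 3.29e-06). Elane, neutrophil elastase, was higher by 1.32 but its values overlapped, and a fit of the 8 monocyte arrays alone gave an adjusted p of 0.0564. Ctsg, cathepsin G, differed by -0.00 ± 0.29 (adjusted p = 0.997) and Ms4a3 by 1.09 (adjusted p = 0.153), so neither was called. Ms4a3, a membrane protein of granulocyte and monocyte progenitors, was called without bone marrow replicate 4 (1.71), while without replicate 2 of that group it stood at 0.29. Of 12 tested genes of this list 3 were higher and 1 lower (25% and 8.33%, against 10.6% and 8.97% of all genes tested). The higher ones were 5 without bone marrow replicate 4, and the lower ones 2 without replicate 2 of either group.

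Of 15 tested genes of late granules and mature neutrophils 3 were higher in fetal liver and 4 lower (20% and 26.7%, against 10.6% and 8.97% of all genes). Without bone marrow replicate 3, and in a fit of the 8 monocyte arrays alone, 1 was higher. Ngp, a secondary granule protein, read 4.61, 8.23, 5.27 and 6.43 in fetal liver and 9.42, 8.23, 10.06 and 10.63 in bone marrow. The value 8.23 appears in both groups, and the difference was -3.45 ± 0.47 (adjusted p = 1.38e-06; -4.15 without fetal liver replicate 2). Camp, the cathelicidin antimicrobial peptide, read 7.81, 10.83, 10.09 and 9.13 against 11.18, 8.95, 11.53 and 12.31 and was called lower at -1.53 (adjusted p = 0.0117). That call was lost without bone marrow replicate 4 (-1.09) and without fetal liver replicate 1 (-0.98), and the difference was -2.21 without bone marrow replicate 2. Lcn2, lipocalin 2, overlapped widely and differed by 0.06 ± 0.37. Cd177, a surface protein of neutrophils, was 5.44, 5.20, 5.37 and 5.32 against 9.19, 9.49, 8.56 and 9.10, which is 13.5-fold lower in fetal liver with no overlap (-3.76 ± 0.13, adjusted p = 5.48e-21). Bone marrow replicate 2 held the lowest bone marrow value of Mpo, Ngp, Camp and Lcn2.

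Cxcr2, the receptor for neutrophil-attracting chemokines, was higher in fetal liver, at 8.37, 8.75, 7.99 and 8.21 against 4.05, 3.75, 5.28 and 4.67. The gap left no overlap and the fold was at least 13.1 (3.89 ± 0.40, adjusted p = 5.75e-09). Olfm4, a secreted glycoprotein found in a subset of neutrophils, read 9.09, 9.65, 9.18 and 9.16 against 3.66, 3.60, 3.83 and 4.32, at least 25-fold higher (5.42 ± 0.19, adjusted p = 2.29e-21). Olfm4 passed the filter on dim genes through its fetal liver arrays, with means of 3.49 to 4.02 in all other groups. Trem1, a receptor that amplifies inflammatory signals, was at least 5.68-fold higher. Genes linked to neutrophils or their granules thus split between the groups. Cxcr2, Olfm4 and Trem1 were higher in fetal liver, and Cd177 and Ngp were higher in bone marrow. Cxcr2 and Trem1 are not particular to neutrophils here, with means of 5.52 to 7.29 and 6.87 to 7.84 in the 6 alveolar macrophage groups. The alarmins S100a8 and S100a9, among the brightest genes on every array, were not called (0.37 ± 0.41 and 0.46 ± 0.32). Whether cells of the neutrophil line add to these values was not tested.

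The opposite pole was Chil3, a chitinase-like protein that macrophages secrete. It read 4.71, 5.10, 4.06 and 5.14 in fetal liver and 12.20, 12.22, 12.30 and 12.28 in bone marrow. The 4 bone marrow arrays lay close together and the fold was 181 (-7.50 ± 0.14, adjusted p = 2.14e-29). Stxbp6, a regulator of vesicle fusion, read 4.59, 4.82, 4.64 and 4.71 against 9.75, 9.25, 9.11 and 10.16 (29.4-fold lower, adjusted p = 1.39e-20). AW112010, an interferon-inducible transcript, read 3.24, 3.25, 2.92 and 4.19 against 7.87, 7.82, 8.36 and 8.89, at least 12.2-fold lower (adjusted p = 1.36e-15). S100a4, a calcium-binding protein of motile cells, was also lower, at 9.60, 11.08, 10.97 and 10.98 against 12.63, 12.65, 12.71 and 12.63 (-2.0 ± 0.46, adjusted p = 0.00151). Fetal liver replicate 1 stood below the other arrays of its group for this gene.

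**Figure D3:**
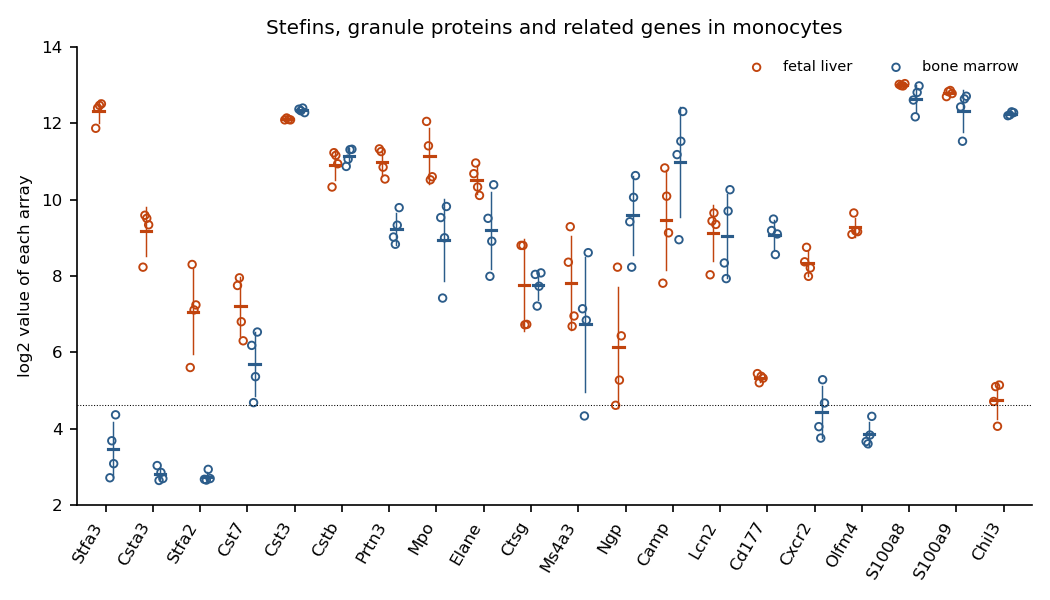
Log2 value of each array (circles), group mean (bar) and SD (thin line) of 20 genes in fetal liver (orange) and bone marrow (blue) monocytes, 4 arrays each; the dotted line is the median of the table. Stfa3, Csta3, Stfa2, Cxcr2 and Olfm4 are separated upward in fetal liver and Chil3 and Cd177 downward, while Camp, Lcn2 and Ctsg overlap.

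Among progenitor genes 1 stood out. Cd34, a sialomucin of haematopoietic progenitors and endothelium, was high in every fetal liver array, at 9.48, 9.10, 8.45 and 8.66, and dim in bone marrow, at 4.04, 3.57, 3.71 and 3.67. The fold was at least 19.7 (5.18 ± 0.17, adjusted p = 1.06e-21). Cd34 passed the filter on dim genes through these fetal liver arrays, with means of 3.01 to 3.75 in all other groups. Its place in the count below follows from its level in fetal liver. Kit, the stem cell factor receptor, was dim in both groups (mean 3.94 ± 0.21 and 3.95 ± 0.17, SD, n = 4) and did not pass the filter on dim genes. Of 21 measured progenitor genes 12 were dim in both groups. Among the 12 tested, Cd34 was the only one called higher (2 were without bone marrow replicate 3 or fetal liver replicate 3), and 3 were lower: Cd93, at 6.06, 5.92, 4.23 and 5.27 against 7.35, 8.17, 7.78 and 7.67 (-2.37 ± 0.38), Flt3 (-1.01) and Lmo2 (-0.74).

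Oncofetal genes, which are repressed by let-7 microRNAs after birth, were higher or not called. Igf2bp3, an RNA-binding protein of fetal tissues, read 8.52, 8.32, 7.85 and 8.29 against 4.94, 5.04, 5.03 and 5.23. The groups lay more than 2 units apart (3.18 ± 0.17, 9.09-fold, adjusted p = 2.69e-16). Igf2bp1, its paralogue, read 6.56, 6.33, 5.30 and 6.22 against 4.26, 4.09, 4.36 and 4.29, at least 2.79-fold higher (adjusted p = 3.14e-10), although a further probe set of the gene differed by only 0.08 and the mean of both by 0.97. Arid3a, a transcription factor of fetal blood formation, was 2.59-fold higher. Lin28b, the protein that blocks let-7 maturation, was called at 0.98 ± 0.13 but was dim in both groups, at 4.38, 4.35, 3.91 and 4.20 against 3.31, 3.25, 3.33 and 3.04, so no fold is given. Of the 16 tested genes of this list 7 were higher and none lower (8 and 0 at an unadjusted p under 0.05 in limma), and the array means were 5.74 to 6.05 in fetal liver and 5.29 to 5.37 in bone marrow. Hmga2, a let-7 target of the list, differed by -0.18 (adjusted p = 0.371).

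Genes of DNA replication were higher in fetal liver almost throughout. Of 49 tested S phase genes 46 were higher and none lower (47 and 0 at an unadjusted p under 0.05 in limma), with a median of 1.32, 37 of them by at least 2-fold. For 43 genes the 4 fetal liver values lay above the 4 bone marrow values, against 9.74% of all genes tested. Hells, a chromatin remodeller of replicating cells, read 8.47, 8.38, 7.81 and 8.12 in fetal liver and 5.57, 6.27, 6.04 and 6.15 in bone marrow (4.55-fold, adjusted p = 1.20e-10). Mcm5, a subunit of the replicative helicase, read 9.32, 9.02, 8.73 and 8.73 against 7.45, 7.48, 7.85 and 7.62 (2.55-fold). Cdc45, which activates that helicase, was higher by 1.78, Ccne1, the cyclin of S phase entry, by 1.58, and Orc6, of the origin recognition complex, by 1.64. The 3 tested genes that were not called were Tk1 (0.47, adjusted p = 0.0535, called at 0.56 without bone marrow replicate 2 or fetal liver replicate 3), E2f1 (0.18) and E2f2 (-0.24).

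Mitotic genes were higher too. Of 54 tested, 46 were higher and none lower (50 and 1 at an unadjusted p under 0.05 in limma), with a median of 0.91 and 21 genes at least 2-fold higher. The count was 33 to 45 when single arrays were left out, and 1 gene was lower without fetal liver replicate 3. Cenpk, a kinetochore protein, read 8.90, 9.0, 8.72 and 8.97 against 6.85, 7.15, 7.05 and 7.63 (1.73 ± 0.25, adjusted p = 2.90e-06). Birc5, the survivin of the chromosomal passenger complex, read 10.20, 10.51, 10.26 and 10.39 against 9.33, 9.11, 9.25 and 9.69 (0.99 ± 0.14). Neither gene overlapped between the groups. Mki67, the proliferation antigen, did overlap, at 8.86, 7.52, 7.54 and 9.14 against 7.33, 8.07, 7.76 and 7.27, and was not called (0.66 ± 0.36, adjusted p = 0.222). Top2a, a topoisomerase of dividing cells, was likewise not called (0.76, adjusted p = 0.0935). Mitotic genes were not dim in bone marrow, where the array means of the list were 7.25 to 7.74 against 8.14 to 8.57 in fetal liver. Of 14 tested inhibitors of the cycle 1 was higher and 3 were lower (1 lower without bone marrow replicate 2). Btg1, an antiproliferative protein of resting cells, was lower at -0.80 ± 0.16 and Rbl1, a pocket protein of the retinoblastoma family, higher at 0.76 ± 0.18.

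Start windows of the S phase genes were searched for 4 spellings of the site of the E2F factors, which drive replication genes: TTTCCCGC, TTTGGCGC, TTTCGCGC and TTTGCCGC, on both strands, with overlaps counted. At least 1 of them was found in 17 of 46 windows of the S phase genes called higher (37%) and in 5 of 39 windows of the mitotic genes called higher (12.8%). The share was 2.26% over all 32851 windows, 3.85% over those of the genes tested, 12.7% over genes at least 2-fold higher and 2.17% over genes at least 2-fold lower. The windows of Hells (chr19:38930740-38931039, plus strand) and Mcm5 (chr8:75109259-75109558, plus strand; RefSeq, GRCm38.p6) are shown as examples with the match in capitals.
Hells: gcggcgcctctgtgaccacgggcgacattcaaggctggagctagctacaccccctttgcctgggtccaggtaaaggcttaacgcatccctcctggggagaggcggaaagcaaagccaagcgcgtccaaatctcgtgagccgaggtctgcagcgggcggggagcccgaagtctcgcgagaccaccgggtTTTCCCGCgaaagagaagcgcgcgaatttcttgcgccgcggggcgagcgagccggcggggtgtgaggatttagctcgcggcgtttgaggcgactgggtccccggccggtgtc
Mcm5: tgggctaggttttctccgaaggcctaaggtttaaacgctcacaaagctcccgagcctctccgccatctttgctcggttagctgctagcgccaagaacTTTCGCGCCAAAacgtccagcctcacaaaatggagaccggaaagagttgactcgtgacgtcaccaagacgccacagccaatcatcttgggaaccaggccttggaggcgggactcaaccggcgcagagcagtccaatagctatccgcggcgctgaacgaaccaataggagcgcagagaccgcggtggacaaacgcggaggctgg
The match in Hells starts at -62, and that in Mcm5 is a pair of overlapping matches at -153 and -149. Cdc45, Ccne1 and Orc6 had no match in their windows.

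Interferon-stimulated effectors, the antiviral genes switched on by type I interferon, were lower in fetal liver as a block. Of 48 tested, 39 were lower and 1 higher, with a median of -1.27, and 30 were lower by at least 2-fold. For 41 genes, Ifitm1 among them, the groups did not overlap, against 18.8% of all genes tested (9.74% higher and 9.03% lower). The array means of the list were 6.14 to 6.54 in fetal liver and 7.52 to 7.79 in bone marrow. Ifit3, which hinders translation of viral RNA, read 4.61, 4.97, 4.35 and 5.69 against 9.28, 9.31, 8.72 and 8.72 (17.2-fold lower, adjusted p = 6.70e-08). Rsad2, viperin, read 5.00, 4.95, 4.73 and 4.87 against 7.47, 7.04, 6.24 and 6.47 (3.77-fold lower). Oas1a, a sensor of double-stranded RNA, read 7.02, 6.89, 6.85 and 7.41 against 9.87, 9.38, 8.96 and 9.18 (4.94-fold lower). The exception was Ifitm1, a membrane protein of the list that stem cells also express, at 8.04, 8.23, 7.93 and 7.97 against 6.90, 6.60, 6.06 and 7.13 (2.59-fold higher, adjusted p = 7.85e-07). Its relative Ifitm3 was bright in both groups and not called (-0.36 ± 0.57).

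**Figure D4:**
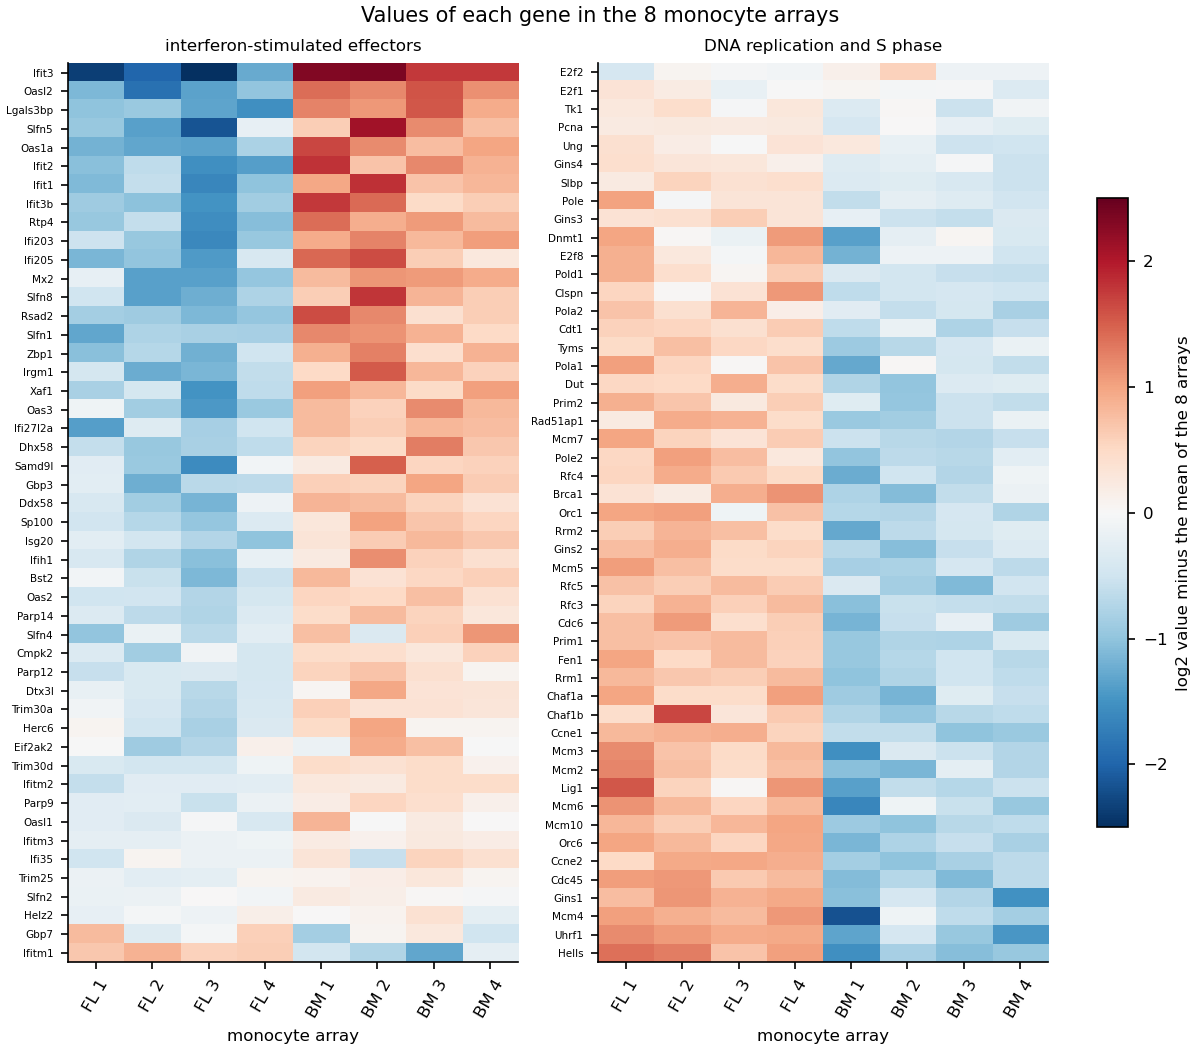
Each of the 48 tested interferon-stimulated effectors (left) and 49 S phase genes (right) in 4 fetal liver (FL) and 4 bone marrow (BM) arrays; colour is the log2 value minus the mean of the 8 arrays. The left block is blue in fetal liver and red in bone marrow for nearly all genes down to Ifitm1, and the right block shows the reverse below E2f2 and E2f1.

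Upstream of the effectors, the receptor itself was not called. Ifnar1 and Ifnar2, the chains of the type I receptor, were not called (-0.21, adjusted p = 0.501, and -0.33, adjusted p = 0.05 after rounding). Ifnar2 lay at the threshold and was called without bone marrow replicate 1 (-0.42) or fetal liver replicate 4 (-0.39). Among the transducers below the receptor, Stat2 read 5.79, 5.78, 5.64 and 6.03 against 7.22, 7.30, 7.36 and 6.96 (2.64-fold lower), and its partner Irf9 was lower by 1.88-fold. Irf7, the factor that amplifies interferon production, read 6.89, 6.57, 5.93 and 7.13 against 8.87, 8.12, 8.42 and 8.36 (3.51-fold lower, adjusted p = 4.76e-06). None of these 3 genes overlapped between the groups. In all, 5 of 14 receptor and transducer genes were lower and none higher (7 and 0 at an unadjusted p under 0.05 in limma). Usp18, a brake on the receptor that is itself induced, was 5.45-fold lower.

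The start windows were searched for the interferon-stimulated response element in the form GAAANNGAAA on both strands, with overlaps counted. A match was present in 20 of 39 windows of the lower effectors (51.3%) and in 3 of 9 windows of the effectors that were not lower (33.3%). It was found in 3.44% of all windows, 3.03% of those of tested genes, 12.7% of those of genes at least 2-fold lower and 2.27% of those of genes at least 2-fold higher. Windows of 3 effectors with a match follow, with the match in capitals: Ifit3 at chr19:34583279-34583578 on the plus strand, Rsad2 at chr12:26456403-26456702 on the minus strand and Oas1a at chr5:120907476-120907775 on the minus strand (RefSeq, GRCm38.p6).
Ifit3: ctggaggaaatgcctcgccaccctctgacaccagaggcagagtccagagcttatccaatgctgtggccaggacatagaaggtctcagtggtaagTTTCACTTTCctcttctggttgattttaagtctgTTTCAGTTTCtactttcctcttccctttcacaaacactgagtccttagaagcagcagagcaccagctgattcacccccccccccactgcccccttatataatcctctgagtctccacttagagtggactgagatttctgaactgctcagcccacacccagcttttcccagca
Rsad2: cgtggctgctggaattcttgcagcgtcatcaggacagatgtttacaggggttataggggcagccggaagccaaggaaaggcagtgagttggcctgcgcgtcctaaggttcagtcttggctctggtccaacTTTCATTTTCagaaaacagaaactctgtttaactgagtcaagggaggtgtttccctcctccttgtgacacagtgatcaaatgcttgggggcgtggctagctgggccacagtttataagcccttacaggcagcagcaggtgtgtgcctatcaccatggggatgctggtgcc
Oas1a: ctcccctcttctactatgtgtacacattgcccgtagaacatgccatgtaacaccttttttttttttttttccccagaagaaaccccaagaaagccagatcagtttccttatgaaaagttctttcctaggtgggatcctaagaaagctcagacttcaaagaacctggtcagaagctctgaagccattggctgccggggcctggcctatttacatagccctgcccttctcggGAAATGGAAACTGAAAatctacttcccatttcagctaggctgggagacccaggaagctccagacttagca
Ifit3 had matches at -156 and -122, Rsad2 at -120, and Oas1a a pair of overlapping matches at -20 and -14. Among the other effectors, Oasl2 and Lgals3bp had no match in their windows although they were 6.29-fold and 5.29-fold lower.

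Toll-like receptors and cytosolic sensors were in part lower. Tlr7, the endosomal receptor for single-stranded RNA, read 5.55, 5.45, 5.34 and 6.21 against 8.28, 8.46, 8.0 and 8.22. The groups did not overlap (-2.60 ± 0.17, 6.07-fold, adjusted p = 8.60e-14). Of 25 tested genes of toll-like receptors and their signalling 9 were lower and 2 higher (36% and 8%, against 8.97% and 10.6% of all genes). The genes that were called higher, Tlr4 (0.31) and its co-receptor for endotoxin Cd14 (0.69), depended on single arrays. Neither was called without fetal liver replicate 3 (0.28 and 0.59) or without bone marrow replicate 1 (0.31 and 0.56). Tlr4 was also not called without replicate 2 of bone marrow (0.29) or fetal liver (0.27), and Cd14 without bone marrow replicate 3 (0.50) or fetal liver replicate 4 (0.49). Among inflammasome genes and cytosolic sensors 8 of 19 were lower, and 2 higher, with Casp4, the caspase that binds endotoxin, 2.56-fold lower. The lower ones fell to 4 without bone marrow replicate 2 and to 5 without fetal liver replicate 1, and 1 gene was higher in 6 of the 8 fits that left out an array.

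Antigen presentation on MHC class I was lower in fetal liver for 9 of 18 tested genes and higher for 1 (50% and 5.56%, against 8.97% and 10.6% of all genes). H2-M3, a non-classical class I molecule, read 5.30, 5.12, 5.19 and 5.41 against 7.76, 7.40, 7.33 and 7.50 (4.74-fold lower, adjusted p = 7.03e-10). Tap1, a chain of the peptide transporter, read 6.13, 6.11, 6.14 and 6.45 against 8.16, 8.03, 7.78 and 7.58 (3.2-fold lower). B2m, the light chain of all class I molecules, was very bright in both groups and lower by 0.50 ± 0.07. The one gene called higher was Cd1d1, which presents lipids (0.81 ± 0.17).

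MHC class II genes, which mark antigen-presenting cells, were lower for 9 of 17 tested genes and higher for 1 (52.9% and 5.88%, against 8.97% and 10.6% of all genes). H2-Aa, the class II alpha chain, read 3.26, 3.61, 3.15 and 3.51 in fetal liver and 7.74, 7.52, 7.81 and 7.37 in bone marrow. All fetal liver arrays were dim, and the fold was at least 7.94 (adjusted p = 1.09e-08). H2-Ab1, its beta chain partner, read 3.73, 3.99, 4.02 and 4.03 against 7.43, 7.25, 7.47 and 7.51 (at least 6.92-fold lower). H2-Eb1, the beta chain of the other class II molecule, overlapped at 4.71, 5.07, 4.54 and 5.00 against 5.78, 5.60, 5.37 and 5.01 and was not called. Cd40, the receptor for T cell help, was 3.26-fold lower, while Cd86, a costimulator, was 2-fold higher, at 7.49, 7.91, 7.73 and 7.83 against 6.34, 6.66, 7.16 and 6.80.

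Of the 12 tested dendritic cell genes 5 were called lower and 7 were not called. Irf4, a transcription factor of class II presentation, read 3.82, 3.92, 3.37 and 4.58 against 6.68, 7.03, 6.22 and 5.27, at least 3.2-fold lower (adjusted p = 3.34e-07). Cd209a, a lectin of monocyte-derived dendritic cells, did not pass the filter on dim genes and varied widely in bone marrow, at 3.41, 3.53, 3.20 and 3.44 against 7.16, 6.77, 5.07 and 4.15. Kmo, Flt3, Bst2 and Tcf4 were the other genes of the list called lower, of which Tcf4 (-0.61) lost its call without bone marrow replicate 1 (-0.52), bone marrow replicate 2 (-0.56) or fetal liver replicate 3 (-0.42). Xcr1 and Clec9a, which define the cross-presenting dendritic cell, were dim in both groups. The part of dendritic cells in the class II difference was not tested.

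Among 39 tested myeloid transcription factors 9 were higher and 10 lower, the latter falling to 6 without bone marrow replicate 2. Pparg, the nuclear receptor that alveolar macrophages need, read 8.14, 7.68, 7.85 and 7.72 against 5.23, 5.54, 6.02 and 5.21 (5.09-fold higher, adjusted p = 2.18e-14). Across the series its level was 6.60 ± 0.13 (SD, n = 4) in yolk sac macrophages, between the monocyte groups, and 10.01 to 10.34 in the means of the 6 alveolar macrophage groups. Id3 and Id1, inhibitors of E proteins and targets of BMP signalling, were both higher: Id3 read 7.78, 8.47, 8.0 and 8.02 against 4.55, 4.18, 4.48 and 3.83 (at least 10.9-fold), and Id1 differed by 1.38 ± 0.25. Tcf7l2, a partner of beta-catenin, was higher by 1.64 ± 0.15, Tfec, a macrophage factor of the MiT family, by 1.29 ± 0.13, and Myc, a driver of growth, by 1.48 ± 0.23. Cebpa, which starts the granulocyte and monocyte line, was lower at 6.86, 6.45, 6.24 and 6.84 against 7.72, 7.78, 7.43 and 7.56 (-1.03 ± 0.16). Rxra, the partner of Pparg, was lower too, at 5.47, 6.14, 6.13 and 6.18 against 7.11, 7.14, 6.87 and 6.79 (-1.0 ± 0.18). Of these genes none overlapped between the groups.

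Of 18 tested chemokine receptors 4 were higher and 3 lower (22.2% and 16.7%, against 10.6% and 8.97% of all genes tested), with a median of -0.06. Cx3cr1, the fractalkine receptor, which rises as monocytes mature, read 7.06, 7.58, 7.23 and 7.49 against 10.06, 10.66, 9.77 and 9.46 (6.26-fold lower). Ccr1 and C5ar1, receptors for inflammatory chemokines and for complement C5a, were higher by 1.40 ± 0.20 and 1.11 ± 0.18. Of 21 integrin and selectin genes 9 were lower and 1 higher, and the lower ones were 5 without bone marrow replicate 2. Itgb7, a beta integrin of gut homing, read 5.54, 5.95, 4.90 and 6.59 against 8.33, 8.37, 8.61 and 8.08 (6.06-fold lower, adjusted p = 8.04e-11). Itgb2, the shared beta chain of the leukocyte integrins, was lower by 0.82 on the log2 scale. Fn1, fibronectin, was also lower, at 8.56, 8.25, 8.37 and 9.36 against 10.57, 11.98, 11.50 and 11.12 (6.3-fold).

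Of 21 tested genes of the colony-stimulating factor receptors and their signalling 2 were higher and 3 lower. These shares of 9.52% and 14.3% lay near the 10.6% and 8.97% of all genes tested. Csf2rb, the signalling chain of the GM-CSF receptor, read 9.16, 8.93, 8.61 and 9.04 against 7.65, 8.62, 8.46 and 8.10, which was called higher at 0.73 ± 0.19 (adjusted p = 0.00613). The groups met at 8.61 and 8.62, and the call was lost without bone marrow replicate 1 (0.54). Csf3r, the G-CSF receptor, differed by -0.03 ± 0.26.

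Phagocytic and pattern receptors changed by member. Msr1, a scavenger receptor for modified lipoproteins, read 7.56, 7.33, 7.39 and 7.43 against 9.29, 9.58, 9.49 and 9.64 (4.2-fold lower, adjusted p = 1.18e-11). Fcgr2b, the inhibitory IgG receptor, was 2.82-fold lower and Clec4a3, an inhibitory lectin, 3.02-fold lower. Clec4n, dectin-2, which binds fungal mannans, was at least 3.86-fold higher, at 5.66, 7.0, 6.64 and 6.99 against 5.49, 4.06, 4.5 and 4.27. Of 17 tested C-type lectins 7 were lower and 3 higher (41.2% and 17.6%). Of 27 Fc and inhibitory receptors 8 were lower and 5 higher (29.6% and 18.5%). Over all genes tested 8.97% were lower and 10.6% higher. In the Ms4a cluster of membrane proteins, Ms4a8a read 4.74, 5.40, 5.60 and 5.44 against 9.47, 9.82, 9.44 and 9.15 (18-fold lower), Ms4a4a was 11.4-fold lower, and Ms4a6b, Ms4a4c and Ms4a7 were lower by 2.00, 1.84 and 1.59 on the log2 scale.

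Genes of glucose use were in part higher. Ldha, lactate dehydrogenase A, read 10.45, 10.34, 10.27 and 10.34 against 9.31, 9.10, 9.22 and 9.17 (2.22-fold higher, adjusted p = 8.69e-10). Tpi1, triose phosphate isomerase, and Slc2a1, the glucose transporter Glut1, were 2.45-fold and 2.31-fold higher. Of 21 tested genes of glycolysis and glucose uptake 10 were higher and 2 lower, with a median of 0.42 (1 lower without bone marrow replicate 1 or 3 or fetal liver replicate 1 or 4), and the array means were 7.32 to 7.46 against 7.06 to 7.23. Among 35 genes of the respiratory chain 7 were higher and none lower (12 and 0 at an unadjusted p under 0.05 in limma), and without bone marrow replicate 1 only 4 were higher. A fit of the 8 monocyte arrays alone gave 2 higher, and one with a replicate block 0. Scd2, a fatty acid desaturase, read 9.65, 8.80, 8.61 and 8.81 against 5.84, 6.23, 6.52 and 6.14 (6.89-fold higher). Of 35 lipid genes 9 were higher and 3 lower (5 lower without bone marrow replicate 1). Gpx3, a secreted glutathione peroxidase, was 6.71-fold higher.

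Lysosomal genes leaned to bone marrow: 14 of 32 were lower and 4 higher (2 higher without bone marrow replicate 1 or 4), with a median of -0.23. The lower ones were 10 to 12 when single monocyte arrays were left out, and 6 with a replicate block. Ctse, cathepsin E, and Npc2, a cholesterol carrier of the lysosome, were 2.26-fold and 1.56-fold lower. The array means were 8.68 to 8.74 in fetal liver and 8.85 to 8.99 in bone marrow. Rpl39l, a paralogue of a ribosomal protein, read 6.48, 7.28, 6.87 and 7.26 against 4.33, 4.21, 4.35 and 4.67, at least 5.08-fold higher (2.58 ± 0.39). Tfrc, the transferrin receptor for iron uptake, read 6.70, 6.84, 5.60 and 5.50 against 4.5, 4.66, 4.57 and 4.71, at least 2.9-fold higher, and is also the one erythroid marker called.

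Immediate early genes, which respond fast to handling and growth signals, were in part higher in fetal liver. Egr1 read 7.87, 8.60, 8.49 and 9.28 against 5.28, 5.19, 4.61 and 5.41 (10.8-fold, adjusted p = 8.86e-14). Nr4a1 read 6.62, 8.12, 8.50 and 8.57 against 6.85, 7.02, 6.79 and 6.09 (1.26 ± 0.28), with fetal liver replicate 1 inside the bone marrow range, and a fit of the 8 monocyte arrays alone gave an adjusted p of 0.0511. Of 26 tested genes 7 were higher and 1 lower (2 lower without fetal liver replicate 3), and the median of 0.06 lay close to 0. Digestion of the liver and crushing of the bones went with the groups, so their part cannot be told apart from age or organ.

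Among inflammatory mediators, fetal liver replicate 1 was again the lowest array of its group for Il1b, Ptgs2 and Thbs1. Il1b, interleukin 1 beta, read 4.89, 7.42, 7.49 and 7.69 against 5.27, 5.07, 5.00 and 5.09, so fetal liver replicate 1 lay below every bone marrow array while the other three were 2 units above (1.77 ± 0.44, adjusted p = 0.00324). Ptgs2, cyclooxygenase 2, read 6.02, 7.68, 7.79 and 8.39 against 4.21, 4.31, 4.06 and 3.94 (at least 7.19-fold). Thbs1, thrombospondin 1, read 9.63, 9.88, 10.45 and 10.55 against 5.77, 6.24, 6.82 and 6.73 (13.3-fold, adjusted p = 5.59e-17). Without fetal liver replicate 1 the difference of Il1b was 2.43 and that of Nr4a1 1.71. The chemokine Ccl3 was higher by 2.48 ± 0.39, with fetal liver replicate 4 standing apart at 10.16. By contrast, Ccl9 and Cxcl10 were lower by 1.92 and 2.21 on the log2 scale. Of 29 tested cytokines and chemokines 3 were higher and 5 lower (10.3% and 17.2%, against 10.6% and 8.97% of all genes tested).

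The alveolar macrophages that had grown from both kinds of monocyte in the lungs of Csf2rb-/- mice were then compared with each other. Between them 51 of the 12244 genes were called, 21 (0.172%) higher and 30 (0.245%) lower with fetal liver origin. Among the 2390 genes called in the monocytes, 17 were called again in the same direction (0.711%), 7 higher and 10 lower, and 1 in the opposite direction. Of the 642 genes that differed at least 2-fold in the monocytes, 523 (81.5%) showed a significant change of the difference, against 9.94% of all genes, and in 522 of them the difference between the macrophages lay nearer 0. These genes were chosen by the monocyte difference, which is itself a term of that change, so the share and the shift toward 0 are a description and no test. The median size of the difference in those 642 genes was 1.33 in monocytes and 0.16 in macrophages, where it was 0.11 for all genes.

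Stfa3 read 2.81, 2.66, 2.56 and 2.65 in macrophages from fetal liver and 2.91, 2.66, 3.07 and 2.63 in those from bone marrow, and the change of its difference was called (adjusted p = 3.18e-19). Stfa3 was picked by its monocyte difference, a term of that change, and was dim in both macrophage groups. That call is therefore a description and no test. Chil3 stood at 13.01 ± 0.05 (SD, n = 4) with fetal liver origin and 13.02 ± 0.04 with bone marrow origin. Pparg stood at 10.34 ± 0.11 and 10.23 ± 0.21. In none of the lists of stefins, interferon-stimulated effectors, S phase and mitotic genes was any member called between the macrophages. Only 0.417% of all genes tested were called there, so lists of this size could hold none at that share alone. At an unadjusted p under 0.05 in limma, 0 of 6 stefins, 3 of 48 effectors, 1 of 49 S phase genes and 0 of 54 mitotic genes differed. The share of all genes at an unadjusted p under 0.05 is not given, so none of the unadjusted counts is read against it. The change of the difference was called for 25 of 48 effectors, 43 of 49 S phase genes and 24 of 54 mitotic genes. The monocyte results were known when these lists were chosen, and the monocyte difference is a term of the change. These counts are likewise a description.

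Apoc1, an apolipoprotein of macrophages, was one of the 17 genes called in both cell types in the same direction, of which others are marked in the plot of both differences. It read 9.95 in replicate 1 and 10.84 to 11.01 in the other fetal liver arrays, and 8.16, 7.60, 8.84 and 8.55 in bone marrow monocytes. In the macrophages it read 9.65, 8.41, 7.93 and 10.46 against 4.87, 3.97, 4.01 and 4.97, so the difference grew from 2.41 to 4.65 (change -2.24, adjusted p = 0.0134). The bone marrow-derived group was dim, and the fold in macrophages was at least 22.4. Igf2bp3 kept part of its difference: the macrophages read 6.62, 6.79, 6.68 and 6.34 against 5.11, 5.14, 5.58 and 5.50 (1.27 ± 0.17, adjusted p = 1.42e-05), less than the 3.18 in monocytes (adjusted p = 5.54e-07). Rps4l, a retrogene copy of a ribosomal protein gene, differed by 1.82 in monocytes and 1.69 in macrophages, where it read 8.05, 8.25, 8.07 and 8.67 against 6.85, 6.86, 6.27 and 6.30. A change of that difference was not called (adjusted p = 0.83). Apoc1, Igf2bp3 and Rps4l were picked by called differences that are terms of the change, so its p-values here are a description and no test. A further probe set of Rps4l differed by only 0.88 in the monocytes (means 8.03 against 7.14). Mcts2, another retrogene, and G0s2, an inhibitor of lipolysis, differed by 1.49 and 1.24 in macrophages, and each lost its call in at least 1 of the fits that left out a macrophage array: Mcts2 at 1.11 without bone marrow-derived replicate 4, 1.37 and 1.31 without fetal liver-derived replicates 1 and 4, and G0s2 at 1.10 without bone marrow-derived replicate 2, 1.17 and 1.13 without fetal liver-derived replicates 1 and 2. In a fit of the 8 macrophage arrays alone Apoc1, Igf2bp3 and Rps4l were still called (adjusted p = 0.00618, 0.00801 and 0.00709), and Mcts2 and G0s2 were not (0.366 and 0.0783).

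Of the 17 tested class II genes 4 were lower in macrophages from fetal liver and none higher, with a median of -0.10, and 7 differed at an unadjusted p under 0.05 in limma. Cd40, lower in the monocytes, differed by 0.10 in the macrophages and was not called (adjusted p = 0.999). H2-Aa read 6.59, 8.11, 5.64 and 5.84 in macrophages from fetal liver and 10.50, 9.16, 10.96 and 10.77 in those from bone marrow (-3.80 ± 0.45, adjusted p = 2.62e-06). H2-Ab1 read 7.08, 7.41, 6.03 and 5.41 against 10.40, 9.38, 10.49 and 10.64 (-3.74 ± 0.41, adjusted p = 5.13e-07). The groups did not overlap, and neither difference had changed significantly from that in the monocytes (adjusted p = 0.772 and 0.848). Both genes were picked by these differences, so the p-values of the change are likewise a description. H2-Eb1, not called in monocytes, was lower by 2.62 on the log2 scale in macrophages with fetal liver origin (adjusted p = 3.47e-04). Replicate 2 of each macrophage group lay toward the other group in all 3 genes. Akr1c13, an aldo-keto reductase, was lower in both cell types, by 2.44 and 1.21 on the log2 scale, and the call in macrophages was lost without bone marrow-derived replicate 1 or 3 (both -1.16) and without fetal liver-derived replicate 4 (-0.88). Arhgap15, a regulator of Rac signalling, was lower by 0.93 on the log2 scale in monocytes and by 1.62 in macrophages, where the fetal liver-derived group was dim and the fold at least 2.2. Hnmt, which inactivates histamine, was dim in fetal liver monocytes and in the macrophages from them, at least 1.07-fold lower in the first, with overlapping values, and at least 2.32-fold lower in the second. In a fit of the 8 macrophage arrays alone H2-Aa, H2-Ab1 and Hnmt were still called (adjusted p = 0.0313, 0.00709 and 0.00618), and Akr1c13 and Arhgap15 were not (0.289 and 0.0538).

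Fn1 turned over. It was lower with fetal liver origin in monocytes (-2.66) and higher in macrophages, at 8.08, 8.89, 9.75 and 10.89 against 7.28, 7.19, 7.80 and 7.24 (2.02 ± 0.40, adjusted p = 0.00665). The change of the difference was -4.68 (adjusted p = 3.96e-07). Fn1 was picked by its called differences, which are terms of that change, so this p-value is a description and no test. The fetal liver-derived arrays spanned almost 3 units, and without the highest of them, replicate 4, the difference was 1.53 and not called (adjusted p = 0.0615), nor was it in a fit of the 8 macrophage arrays alone (0.289).

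**Figure D5:**
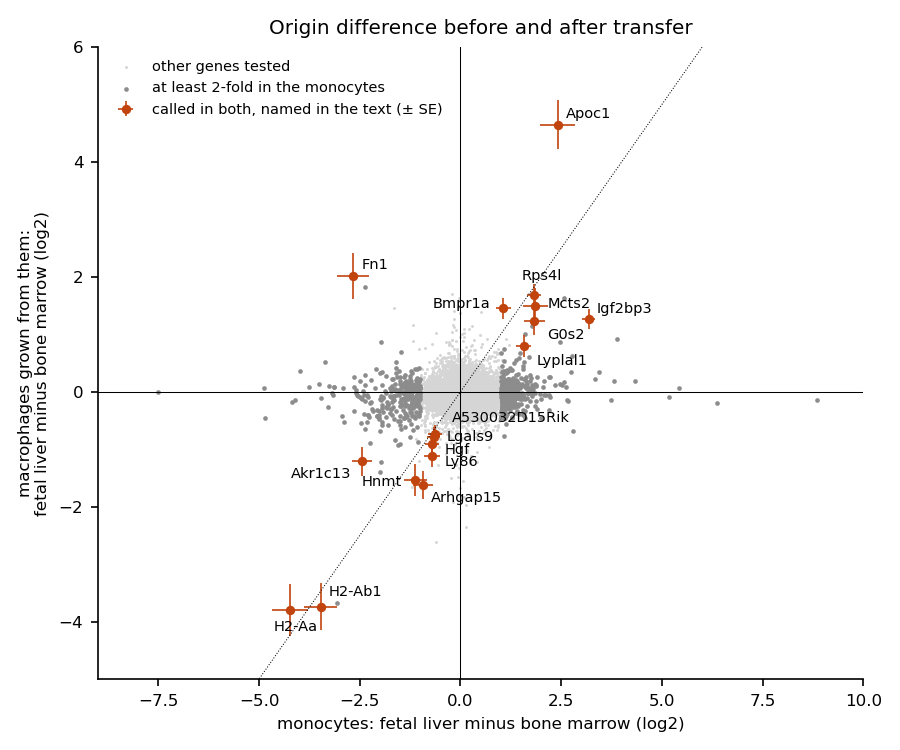
Origin difference (fetal liver minus bone marrow, log2) in monocytes (horizontal axis) and in the alveolar macrophages grown from them (vertical axis) for 12244 genes; dark grey points differed at least 2-fold in monocytes, and orange points with SE bars are genes called in both that the plot names. Most dark grey points lie near 0 on the vertical axis; Apoc1 lies high, H2-Aa and H2-Ab1 low near the dotted line of equality, and Fn1 at the upper left, where the directions are opposite.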

How the data were processed

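The deposited values are on a log2 scale, for 35556 probe sets and 36 arrays. Per the submitters' processing notes they are from RMA, whose version is not given in the sources used here. RMA brings all arrays to one distribution, so a shift that most genes share is lost and folds of dim genes shrink. Of the probe sets 21789 had 1 gene symbol in the platform annotation and were used, with symbols updated through RefSeq (GRCm38.p6; 21698 matched, 91 kept the older one). The probe set of highest mean stood for each of 999 genes that had more than 1, and 12244 of 19938 genes exceeded the median of the table in at least 4 arrays.

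Samples were grouped by title. The 9 group means were estimated jointly from the 36 arrays (lmFit and eBayes of limma 3.58.1, R 4.3.3), and two-sided p-values were adjusted over all genes tested (Benjamini-Hochberg). The title calls the arrays biological replicates, but nothing says which animals they came from. The p-values and SE measure the spread between arrays of a group, pooled for each gene over all 9 groups. Where a gene is flat in the macrophage groups, they understate the spread among the monocyte arrays. For Stfa2 the SE was 0.26, while the SD was 1.11 in fetal liver and 0.13 in bone marrow monocytes. The contrasts were fetal liver minus bone marrow monocytes, the same origins among the macrophages grown from them, and the change between both. The difference of array medians was -0.06 (exact two-sided permutation p = 0.0857, with 0.0286 the smallest possible). On simulated data of 12244 genes for the monocyte contrast, 91% of genes with a true difference of 1 and 99% with one of 2 (log2) were recovered, with 11 false calls (5.47%). Motifs were searched with Python 3.11.15 in RefSeq start windows.

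Members and gene lists were chosen with earlier results of these data known. Genes named in the text are the 15 largest called rises and falls without overlap, up to 6 list members with the lowest adjusted p, a panel of 12 genes, and up to 10 genes called in both contrasts, shortened for space. List members outside that rule (such as Mki67's neighbours Tk1, E2f1, Top2a, and Ctsg, Ms4a3, Camp, Lcn2, Elane, Hmga2, Cstb, Ifitm1, Ifitm3, Ifnar1, Ifnar2, Csf3r, Cd14, Tlr4, H2-Eb1, Cd209a, Il1b, Nr4a1) were chosen after their values were seen. A further gene is not reported here. Alternatives were other filters, scalings, priors, array weights, probe set means, fits of fewer arrays and a replicate block.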

Additional observations from a re-analysis of the deposited data

Results flagged for a closer look

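Within a group of 4 arrays, a single value stood far from the other three in 13 of 260 groups checked (5%), and chance alone gives about 1 in 20. In fetal liver, replicate 1 accounted for 5 of them: Apoc1 at 9.95, H2-Ab1 at 3.73, Il1b at 4.89, Rxra at 5.47 and S100a4 at 9.60 were its values, each below the rest of the group. Fetal liver replicate 4 stood high for Ccl3 (10.16), Itgb2 (9.73) and Tap1 (6.45), and replicate 2 for Olfm4 (9.65). In bone marrow, replicate 2 stood apart for Cd40 (7.35), Hnmt (3.59) and Id1 (6.55), and replicate 3 for Stfa2 (2.93), a dim value.

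The origin difference changed between monocytes and the macrophages grown from them, by a test of that change, in 1217 genes. Among the genes described, the monocyte difference minus the macrophage difference was 9.0 for Stfa3, -4.68 for Fn1, 2.01 for H2-Eb1, 1.91 for Igf2bp3, -1.23 for Akr1c13 and -2.24 for Apoc1. These genes were picked with the differences that make up this change known, so their values are a description and no test.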

How the results depend on the processing

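With each monocyte array left out in turn, 1028 to 1350 genes were higher and 914 to 1067 lower, 305 to 415 and 279 to 320 of them at least 2-fold, and 1024 to 1238 showed a change of the difference after transfer. The genes called in the same direction in the macrophages were 17 to 18 then, and 13 to 17 with single macrophage arrays left out, an alternative chosen after seeing the data, which gave 1024 to 1159 for the change. In a fit of only the arrays compared, which has fewer samples, 8 genes were called in the same direction in the macrophages. That fit gave 915 genes higher and 781 lower in the monocytes, 332 and 296 of them at least 2-fold. Replicate numbers did not pair the arrays: deviations of same-numbered monocyte arrays correlated at -0.14, -0.14, -0.06 and -0.03. With a replicate block, 641 genes were higher, 571 lower and 1 was called in the same direction in the macrophages. Other filters, centring, quantile normalization, priors, array weights and probe set means left these counts within 1.5 times. Centring the arrays shifted the median of all genes to -0.022. No called difference of a named gene changed sign; those of Ctsg, Lcn2, Csf3r and Spi1, not called, did with single arrays left out. Array number, 4 a group, limits precision, and dim genes have only a bound on their fold.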
